A study of Mus musculus with 12 samples.

Results

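The 10 genes described here encode enzymes of the tricarboxylic acid (TCA) cycle: Cs, Idh3a, Idh3b, Idh3g, Ogdh, Dlst, Dld, Sucla2, Fh1 and Mdh2. They were taken as every probe set of the array that lists one of these gene symbols alone, which gave 26 probe sets among 45037, and 10 genes among 18193. The cycle runs in the mitochondrial matrix, where acetyl-CoA is joined to oxaloacetate and oxidised step by step, and the NADH and reduced flavin it yields feed the respiratory chain. In muscle it mainly supplies energy for contraction, whereas in liver its intermediates are also drawn off for glucose, amino acid and lipid synthesis. PGC-1beta, the product of Ppargc1b, is a transcriptional coactivator that works with factors such as the estrogen-related receptors and NRF1 on genes of mitochondrial metabolism.

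Total RNA of liver and of quadriceps muscle from C57BL/6 mice was hybridised to Affymetrix mouse arrays. The 4 groups were liver of WT/control mice, liver of PGC1beta mutant mice, and quadriceps muscle of each, with 3 arrays a group and 12 in all. The series title calls the mutation hypomorphic, that is, one that lowers the function of the gene product; the labels used here do not state how the allele was made or how old the mice were. Nothing in the labels says that the arrays of a group came from separate mice. The p-values below therefore speak only of the scatter among these arrays, part or all of which may be technical. The labels also do not say whether the same mice gave liver and muscle, and the tests between tissues treat their arrays as independent.

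Values are probe set intensities, normalised by quantiles within each tissue for mutant against control. Deposited array medians were 27.2 to 40.1 for liver and 20.1 to 22.3 for muscle, and arrays of a tissue correlated with r of 0.941 to 0.959 in liver and 0.962 to 0.971 in muscle. The Ppargc1b probe set read 282 to 544 in liver controls, 202 to 491 in liver mutants, 284 to 332 in muscle controls and 271 to 423 in muscle mutants; where it lies relative to the mutated part of the gene is not given, so it does not check the genotype labels. Summed over 5 of 6 listed hepatocyte markers, intensity was 49696 to 56446 on liver arrays and 58.7 to 131 on muscle arrays, whereas 6 skeletal muscle markers summed to 58362 to 61263 on muscle arrays and to 85.8 to 141 on liver arrays. Liver mutants 1 and 3 stood apart in the 3′ to 5′ ratio of control transcripts, a sign of RNA integrity: the mean log2 ratio over Actb, Gapdh and Pcx was 1.90 and 1.87 on those arrays, against 0.90 on liver mutant 2 and 0.50 to 0.97 on the liver controls. On muscle arrays it lay between 0.33 and 0.56.

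In mutant muscle the RNA of all 10 enzymes was measured below the control mean, by 0.05 to 0.52 on the log2 scale, but none passed the test. The median difference over the 10 was -0.20, against -0.00015 over the 13131 genes tested. In limma's moderated test with Benjamini-Hochberg adjustment over all genes, 2 genes passed an adjusted p of 0.05, both higher in the mutant (0.0152% of those tested), and the smallest adjusted p among the 10 was 0.979. At an unadjusted p under 0.05, 6 of the 10 lay lower in the mutant, where 2.53% of all genes did. For 8 of the 10 every mutant array lay under every control array, against 5.22% of all genes, and a difference below 0 was seen for 50.1% of all genes. The exceptions to the separation were Ogdh and Sucla2.

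The NAD-dependent isocitrate dehydrogenase, which turns isocitrate into 2-oxoglutarate in an essentially irreversible step, is built from the catalytic alpha subunit (Idh3a) and the beta and gamma subunits (Idh3b, Idh3g). On its brightest probe set, Idh3b had the largest muscle difference of the 10. Its controls read 818, 937 and 1046, and its mutants 645, 629 and 657. The mutant arrays lay close together and below all controls, whose own values spread more widely. The difference was -0.52 (SE 0.11, 95% interval -0.76 to -0.28), a 1.43-fold lower level, with an unadjusted limma p of 0.00077 and an adjusted p of 0.979. This was rank 9 by p among the 13131 genes. A second, much dimmer Idh3b probe set averaged 55.9 in controls and 52.4 in mutants and overlapped (-0.13), and with the mean of all probe sets Idh3b stood at -0.19, no longer the largest.

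Idh3g read 2346, 2586 and 2279 in muscle controls and 1973, 2158 and 1924 in mutants, again without overlap (-0.25, SE 0.09, unadjusted limma p 0.0147, adjusted p 0.994). For Idh3a the probe set of highest intensity read 3271, 3197 and 3106 in controls and 2942, 3100.0 and 2613 in mutants, a gap of a few units between mutant 2 and the lowest control (-0.15, SE 0.08, 95% interval -0.33 to 0.03). The other Idh3a probe sets gave larger differences. A second probe set read 1739 to 1807 in controls and 1344 to 1456 in mutants (-0.34), and another 602 to 716 and 521 to 546 (-0.29). The fourth Idh3a probe set, at 116 to 139.9 and 84.8 to 143, overlapped.

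The 2-oxoglutarate dehydrogenase complex converts 2-oxoglutarate to succinyl-CoA; Ogdh encodes its first component, Dlst the succinyltransferase core, and Dld the dihydrolipoamide dehydrogenase that it shares with the pyruvate dehydrogenase complex. The measured differences of its components in mutant muscle varied in size, but the components were not tested against each other. Dld read 510.4, 558 and 524 in controls and 358, 398 and 362 in mutants. All mutants lay well below all controls, 1.41-fold lower on average (-0.49, SE 0.10, 95% interval -0.73 to -0.26, unadjusted limma p 0.00082, adjusted p 0.979), which was rank 11 by p. The second Dld probe set was near the floor, averaging 5.49 in controls and 6.89 in mutants. With the mean of both its probe sets Dld stood at -0.21.

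Dlst read 902, 940.3 and 1005 in muscle controls and 689, 654 and 871 in mutants. Mutant 3 stood near the controls and the other two well below (-0.37, SE 0.12, unadjusted limma p 0.0123, adjusted p 0.994). Ogdh read 1758, 1959 and 1804 in controls and 1874, 1781 and 1666 in mutants. Its groups overlapped, and the difference of -0.05 had a 95% interval of -0.24 to 0.14. A fall as large as that measured on the brightest Dld probe set lies outside this interval. With a gene's probe sets averaged, Dld stood at -0.21 and Ogdh at 0.058. Both averages take in a dim second probe set, which for Ogdh averaged 35.8 in controls and 40.1 in mutants.

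Of the remaining enzymes in muscle, Fh1, the fumarase, read 1802, 1731 and 1850.4 in controls and 1442, 1508 and 1594 in mutants (-0.24, SE 0.08, unadjusted limma p 0.0140). Mdh2, the mitochondrial malate dehydrogenase that closes the cycle, read 5315, 5591 and 5782 in controls and 4924, 4854 and 5121 in mutants (-0.16, SE 0.06, unadjusted limma p 0.0311). Both showed no overlap, and both had an adjusted p of 0.994. Cs, citrate synthase, which makes citrate and is often used as a measure of mitochondrial content, read 3527, 3689 and 3681 in controls and 3489, 3471 and 3337 in mutants. Its groups were separated by a narrow gap (-0.08, SE 0.07, 95% interval -0.23 to 0.07). Sucla2, the beta subunit of the ADP-forming succinyl-CoA ligase, read 2915, 2931 and 3391 in controls and 2971, 2799.7 and 3009 in mutants. Its groups overlapped (-0.07, SE 0.08, 95% interval -0.25 to 0.11).

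**Figure D1:**
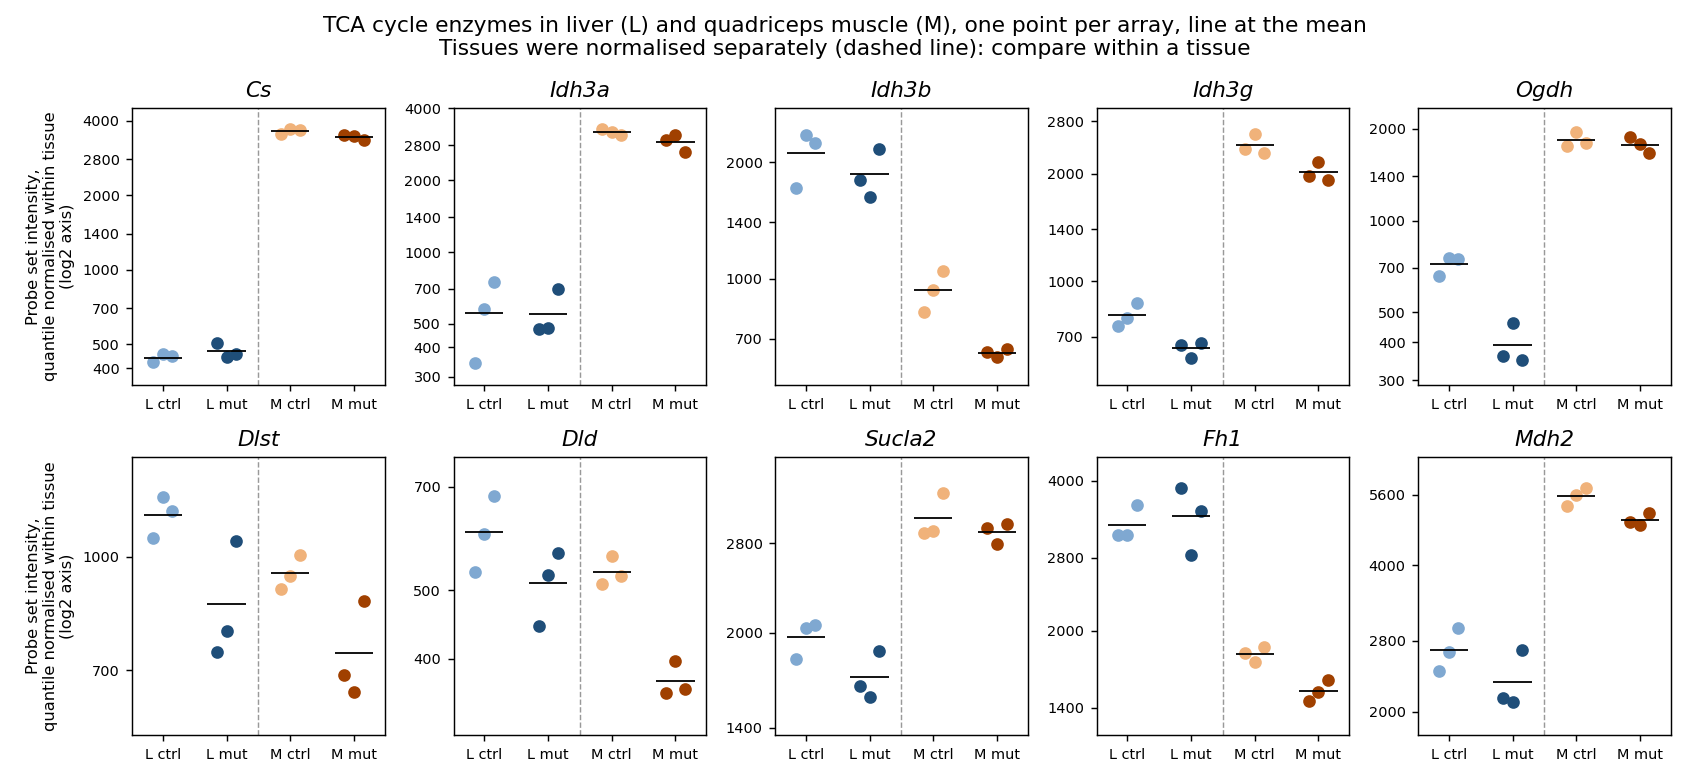
Intensity of each TCA cycle enzyme on each array, normalised by quantiles within a tissue (log2 axis), for control and mutant liver (L) and muscle (M); the line is the mean of 3 arrays, and the tissues, normalised separately, are to be compared within each side of the dashed line. In muscle 8 of 10 genes show every mutant array below every control array, and in liver Ogdh, Dlst and Idh3g do.

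The separation in muscle depended on the scaling of the arrays. With the values as deposited, 5 of the 10 did not overlap (Idh3b, Idh3g, Dld, Fh1 and Mdh2), where 4.08% of all genes lay lower without overlap, and with arrays centred on their median 5 did not (Idh3a, Idh3b, Idh3g, Dld and Fh1), where 3.99% did. All 10 differences stayed below 0 under both. Of the 26 probe sets 22 were bright enough to be tested in muscle, 20 of them with a difference below 0 and 9 with an unadjusted p under 0.05 in that direction (2.57% of all probe sets tested). The 9 included both Idh3g probe sets and 2 further ones of Idh3a. Probe sets of a gene share its transcripts and are not independent.

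As markers of the muscle samples, 6 fast fibre genes summed to 63062 to 63439 on control and 61778 to 63334 on mutant arrays. Quantile normalisation fixes the values of the brightest ranks, and the fast fibre gene Mylpf read 12841 with an SD of 0 in both groups. The fast fibre sums can therefore show little about fibre content. The 6 slow fibre genes summed to 154 to 180.1 on control and 127 to 179 on mutant arrays, where they summed to 150.4 to 193 on liver arrays. The 4 adipocyte markers measured summed to 315 to 726 and 433 to 718. A list of 6 markers of liver endothelium and stellate cells, not drawn up for muscle, summed to 3923 to 8665 and 6967 to 12382. All of these ranges overlapped between the groups. No marker gene of these lists passed the test in muscle, where 0.0152% of all genes did. Of the markers tested, 3 of 4 adipocyte genes (median 0.46) and 5 of 5 genes of the liver endothelium and stellate list (median 0.16) lay above 0. Among the fibre genes 2 of 6 fast and 2 of 5 slow ones did, and 50.1% of all genes lay below 0. In bulk tissue fewer cells of a type and less RNA per cell cannot be told apart.

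The promoter windows of 4 members are shown because Idh3b and Dld had the smallest p-values of the members in muscle, and because Idh3b, Idh3g and Dlst hold a match to a motif of mitochondrial promoters. The sequences are from RefSeq on GRCm38.p6 and are printed from 250 bases before to 20 bases after the annotated gene start, along the gene's strand, out of windows of 300 bases that end 50 bases after it; capitals mark a match to CCGGAAG on either strand. Idh3b is at chr2:130284432-130284701 (minus strand), Dld at chr12:31351452-31351721 (minus), Idh3g at chrX:73786878-73787147 (minus) and Dlst at chr12:85110583-85110852 (plus).
Idh3b: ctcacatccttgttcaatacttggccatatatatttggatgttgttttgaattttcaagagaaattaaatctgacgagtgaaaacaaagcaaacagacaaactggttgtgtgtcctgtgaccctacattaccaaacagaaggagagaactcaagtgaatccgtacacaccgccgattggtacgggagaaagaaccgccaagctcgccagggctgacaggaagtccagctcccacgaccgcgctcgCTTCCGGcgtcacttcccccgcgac
Dld: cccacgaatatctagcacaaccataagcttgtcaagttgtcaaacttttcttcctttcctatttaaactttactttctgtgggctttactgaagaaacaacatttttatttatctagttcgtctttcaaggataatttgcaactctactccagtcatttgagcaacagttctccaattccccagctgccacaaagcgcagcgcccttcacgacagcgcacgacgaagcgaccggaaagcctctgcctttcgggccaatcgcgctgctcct
Idh3g: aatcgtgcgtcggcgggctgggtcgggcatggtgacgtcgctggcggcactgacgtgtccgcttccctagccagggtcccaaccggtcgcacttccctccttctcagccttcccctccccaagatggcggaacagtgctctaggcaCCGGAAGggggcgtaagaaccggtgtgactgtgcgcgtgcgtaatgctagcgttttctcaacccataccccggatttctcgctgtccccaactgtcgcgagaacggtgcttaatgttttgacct
Dlst: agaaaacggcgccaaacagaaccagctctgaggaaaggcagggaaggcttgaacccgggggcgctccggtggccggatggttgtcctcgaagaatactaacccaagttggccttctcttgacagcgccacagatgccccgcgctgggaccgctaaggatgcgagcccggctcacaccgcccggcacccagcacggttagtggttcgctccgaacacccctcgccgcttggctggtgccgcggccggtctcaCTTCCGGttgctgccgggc

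RefSeq promoter windows were found for 9 of the 10 members, all but Idh3a, and numbered 14, since Ogdh has several. CCGGAAG, the core bound by ETS factors such as GABP, occurred in 3 of these 14 windows, each of a different gene, against 8.86% of 32851 windows of 300 bases over all genes. In Idh3b it lay on the opposite strand at position -5 from the gene start, in Idh3g on the gene's strand at -104, and in Dlst on the opposite strand at 2. The letters TCAAGGTCA, an estrogen-related receptor element, and the palindromic NRF1 site were in none of the 14 windows and in 0.423% and 0.971% of all windows. The searches covered both strands, and no window held more than 1 match. A match of letters is not a measured binding site, and the window is short.

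Other enzymes of the cycle measured were Idh2, both Suclg subunits and the 4 subunits of succinate dehydrogenase. All 7 genes were tested in muscle. None passed the test, 6 lay below 0, and their median was -0.23. The smallest p-values were those of Sdhb, the iron-sulphur subunit (-0.41, SE 0.07, adjusted p = 0.581), Sdhd, a membrane anchor (-0.32, SE 0.08, adjusted p = 0.994), and Sdha, the flavoprotein subunit (-0.24, SE 0.09, adjusted p = 0.994). Pyruvate entry, the pyruvate dehydrogenase subunits and the pyruvate carrier, had 0 of 5 past the threshold and 5 of 5 below 0 (median -0.16). Among 12 genes of anaplerosis and exit, which feed or drain the cycle, 0 passed and 10 lay below 0 (median -0.15). Of the 4 cytosolic counterparts (Aco1, Idh1, Mdh1 and Acly) 0 passed, 3 lay above 0 and Mdh1, singled out after its values were seen, below (-0.37, SE 0.08, adjusted p = 0.979).

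In mutant liver Ogdh fell 1.82-fold, and no other member passed the test. The liver comparison had many more calls than that of muscle: 447 of 13327 genes passed (3.35%), 310 higher (2.33%) and 137 lower (1.03% of those tested). With the values as deposited the split was 279 and 18, and with median centring 300 and 33. Without liver control 2, or without liver mutant 1, 0 genes passed, and with the 3′ to 5′ ratio in the model 2 did, both lower. Of the 10 members 1 fell, 0 rose, 7 lay below 0 (48.8% of all genes), 3 were lower at an unadjusted p under 0.05 (8.64% of all genes) and the same 3, Ogdh, Dlst and Idh3g, were lower without overlap (11% of all genes). Their median difference was -0.22, against 0.01 for all genes, but deposited values gave -0.03 and median centring gave -0.04.

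Ogdh read 657, 752 and 746 in liver controls and 361, 460.3 and 349 in mutants. Every mutant lay far below every control, and mutant 2, the array with the 3′ to 5′ ratio of the controls, lay highest of the mutants. The difference was -0.86 (SE 0.15, 95% interval -1.21 to -0.52, adjusted p = 0.0228, limma). Without liver mutants 1 and 3 it was -0.60 with an adjusted p of 0.453, resting on mutant 2 alone, whose spread is taken from the controls, and adding the 3′ to 5′ ratio to the model gave -0.61 with an adjusted p of 0.526. The part of the ratio in the result was not tested further.

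The call for Ogdh was not firm in other respects either. It ended with the values as deposited (adjusted p = 0.057), with the mean of both its probe sets (-0.45, adjusted p = 0.137), and with no variance trend (0.111). Leaving out liver control 1, 2 or 3 gave an adjusted p of 0.0639, 0.0742 and 0.0677, leaving out mutant 1 or 3 gave 0.125 and 0.0664, and leaving out mutant 2 gave 0.0156. The difference itself stayed between -0.99 and -0.78 over these omissions. The second Ogdh probe set, at 2.71 to 4.08 on the liver arrays, was too dim to be tested there. In muscle the same gene's brighter probe set gave -0.05, as above.

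The partners of Ogdh in its complex had lower readings in mutant liver without passing the test. Dlst read 1061, 1207 and 1156 in controls and 741, 793 and 1052 in mutants; mutant 3 came within a few units of control 1 (-0.41, SE 0.15, unadjusted limma p 0.0222, adjusted p 0.173). Dld read 531, 601 and 679 in controls and 445, 526 and 565 in mutants, which overlapped (-0.23, SE 0.16, adjusted p 0.466). Mrps36, a small subunit that links the components of the complex, was the only relative of the complex to pass in liver, and it rose (0.70, SE 0.16, adjusted p = 0.0470). Its group means were 249.8 ± 16.7 (SD, n = 3) and 419 ± 65.4 (SD, n = 3). Dhtkd1, which encodes the 2-oxoadipate dehydrogenase related to Ogdh and is likewise named after its values were seen, did not pass (-0.81, SE 0.40, adjusted p = 0.295), and Ogdhl had no probe set listed under its symbol alone.

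Idh3g read 753, 791 and 872 in liver controls and 663, 612 and 675 in mutants, without overlap (-0.30, SE 0.13, 95% interval -0.59 to -0.01, unadjusted limma p 0.0446, adjusted p 0.242). Idh3b overlapped, at 1719, 2355 and 2248 in controls and 1795, 1624 and 2162 in mutants (-0.18, SE 0.15, adjusted p 0.589). Idh3a spread widely, at 343, 578 and 749 in controls and 475, 479.8 and 699 in mutants. Its difference of 0.03 (SE 0.26) turned to -0.27 without liver control 1 and to -0.15 without liver mutant 3.

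The other members overlapped in liver. Mdh2 read 2421, 2649 and 2969 in controls and 2134, 2094 and 2678 in mutants (-0.22, SE 0.13, adjusted p 0.394), and Sucla2 1816, 2037 and 2063 against 1641, 1574 and 1870.1 (-0.22, SE 0.12, adjusted p 0.351). In both, mutant 3 reached into the control range. A second Mdh2 probe set had the higher mean in mutants, at 1685 ± 542 (SD, n = 3) against 1603 ± 240 (SD, n = 3) in controls. Fh1 read 3109.7, 3114 and 3568 in controls and 3863, 2839.8 and 3475 in mutants (0.05, SE 0.13), which turned to -0.05 without liver mutant 1. Cs read 422, 456 and 447 in controls and 506, 445 and 457 in mutants (0.08, SE 0.14). For Cs the probe sets disagreed: a second one read 582 to 672 in controls and 368 to 578 in mutants (-0.43), and another 507 to 578 and 439.7 to 477 (-0.21), both without overlap.

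Over the members, the median deviation of an array from the control mean was -0.27, -0.33 and -0.03 for liver mutants 1, 2 and 3 and -0.12, 0.05 and 0.11 for the controls, on the log2 scale. Their 3′ to 5′ ratios were 1.90, 0.90 and 1.87 for mutants 1, 2 and 3 and 0.50 to 0.97 for the controls. The part of the ratio in these deviations was not tested. Without mutants 1 and 3 together, 8 of the 10 members lay below all controls, where 27.5% of all genes did, since a single array separates easily. The count of members lower without overlap was 6 without liver control 1 (15.8% of all genes) and 6 without liver mutant 3 (15.7%). It was 2 on deposited values (5.7%), and 1 with median centring (9.4%), which is the share of all genes. The 8 Kupffer cell and macrophage markers summed to 2094 to 2928 on liver control arrays and 3363 to 4336 on mutant arrays. Of these 8, 3 passed the threshold, all higher, where 2.33% of all genes did. The 5 hepatocyte markers summed to 55925 to 56446 and 49696 to 53050. Of these 1 of 5 passed as lower (1.03% of all genes) and all 5 lay below 0 (48.8%). Neither pair of ranges overlapped. The hepatocyte sums are made up mostly of very bright genes, whose values quantile normalisation constrains, so they can show little about hepatocyte content. Tat moved most of the hepatocyte markers, with normalised means of 6408 in controls and 3889 in mutants. Ttr (11729 and 11623) and Apoa1 (13739 and 13595) moved little. On deposited values every mutant lay above every control for Ttr and Apoa1. The part of these markers in the differences of the members was not tested.

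**Figure D2:**
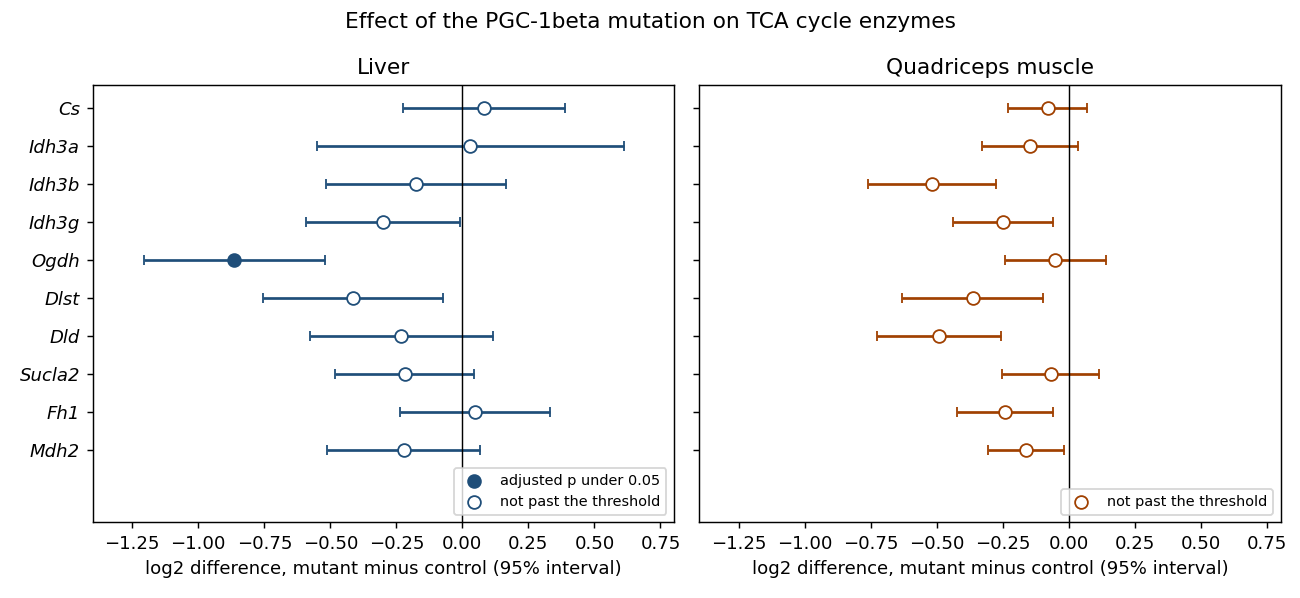
Log2 difference between mutant and control for each TCA cycle enzyme in liver and in muscle, with its 95% interval from limma; a filled point marks an adjusted p under 0.05. Ogdh in liver, at -0.86, is the filled point, and all 10 muscle points lie left of 0.

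**Figure D3:**
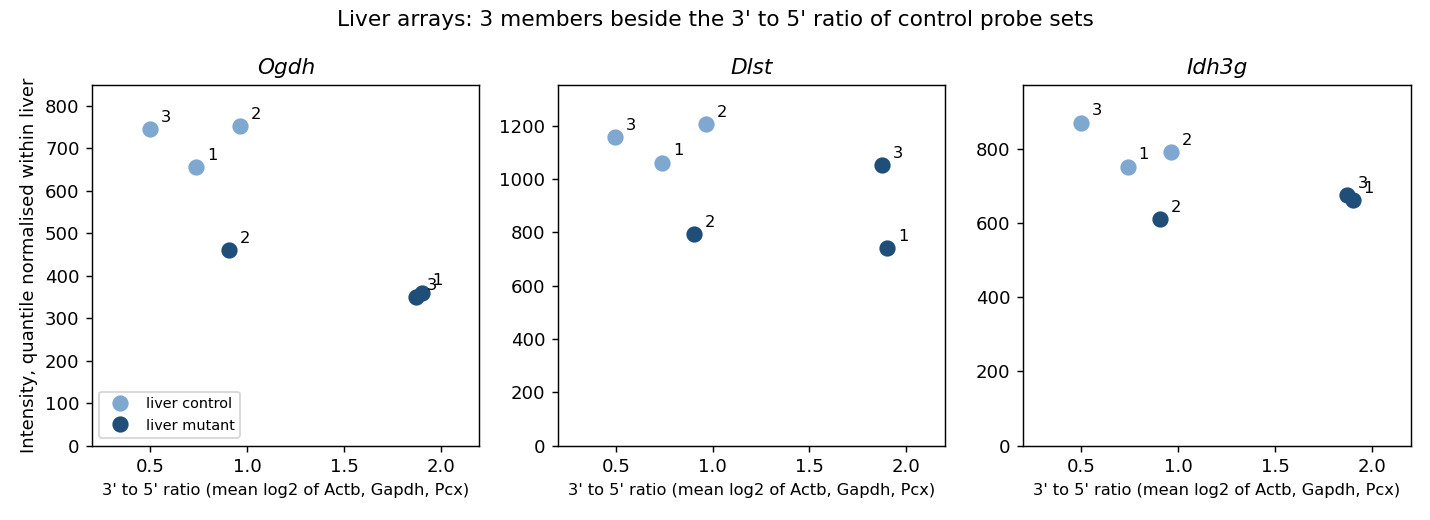
Intensity of Ogdh, Dlst and Idh3g on the 6 liver arrays, normalised within liver, against the mean log2 of the 3′ to 5′ ratio; the digit is the array's number in its group. Mutants 1 and 3 lie at ratios of 1.90 and 1.87, and mutant 2, at 0.90 among the controls, reads 460.3 for Ogdh where the controls read 657 to 752.

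Of the rest of the pathway in liver, 0 of 7 other enzymes of the cycle passed, with 4 below 0 (median -0.14). Sdha came closest (-0.44, SE 0.12, adjusted p = 0.0662), followed by Suclg2, the beta subunit of the GDP-forming succinyl-CoA ligase (-0.25, SE 0.10, adjusted p = 0.190), and Idh2, the NADP-dependent isocitrate dehydrogenase of mitochondria (-0.35, SE 0.14, adjusted p = 0.217). Genes that carry carbon and electrons into and out of the cycle included the calls: among anaplerosis and exit 3 of 12 fell, 0 rose and 10 lay below 0 (median -0.28). Got1, the cytosolic aspartate aminotransferase of the malate-aspartate shuttle, fell by 0.90 (SE 0.15, adjusted p = 0.0182) and Got2, its mitochondrial partner, fell by 0.52 (SE 0.10, adjusted p = 0.0258). Pcx, pyruvate carboxylase, which makes oxaloacetate from pyruvate, fell by 0.63 (SE 0.13, adjusted p = 0.0313); Pcx is also one of the 3 genes behind the 3′ to 5′ ratio.

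Of the cytosolic counterparts 1 of 4 fell in liver: Mdh1, the cytosolic malate dehydrogenase of the same shuttle, by 0.51 (SE 0.11, adjusted p = 0.0354), with a group mean of 5074 ± 183 (SD, n = 3) in controls and 3579 ± 437 (SD, n = 3) in mutants. It was 0.05 with the mean of all its probe sets. Pyruvate entry had 0 of 5 past the threshold and 4 below 0. Without any 1 liver array other than mutant 2, the adjusted p of Got1, Got2, Pcx, Mdh1 and Mrps36 rose above 0.05, up to 0.117 for Got1, 0.135 for Got2, 0.152 for Pcx, 0.156 for Mdh1 and 0.205 for Mrps36. With the 3′ to 5′ ratio in the model the log2 differences were -0.51 for Got1, -0.33 for Got2, -0.37 for Pcx, -0.47 for Mdh1 and 0.46 for Mrps36, with adjusted p-values of 0.487, 0.611, 0.662, 0.529 and 0.683. With the mean of all probe sets Got2 stood at -0.23 (adjusted p = 0.426). All of these calls, and that of Ogdh, rest on the same 6 arrays.

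Whether the mutation acted differently in liver and muscle was tested with the interaction of tissue and genotype in a fit of all 12 arrays. Of 11842 genes 168 passed (1.42%), 137 with a higher liver difference (1.16%) and 31 with a lower one (0.262%); on deposited values it was 55 and 2, after median centring 56 and 2. Of the members Ogdh passed: its liver difference was lower than its muscle difference by 0.81 (liver minus muscle -0.81, SE 0.17, 95% interval -1.17 to -0.45, adjusted p = 0.0332). The other members did not, and of all 10 members 5 lay above 0 (52.3% of all genes) and 5 below (47.7%), with a median of 0.06. The widest differences among them were 0.34 for Idh3b (95% interval -0.08 to 0.76), 0.29 for Fh1 (-0.05 to 0.63) and 0.26 for Dld (-0.12 to 0.65), so the intervals of these genes reach differences between the tissues of up to those upper bounds.

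The interaction for Ogdh ended without liver mutants 1 and 3 together (-0.55, adjusted p = 0.310), with the ratio as a covariate (-0.54, adjusted p = 0.447), on deposited values (adjusted p = 0.141) and after median centring (0.0710). Leaving out liver control 2 or 3 gave 0.0586 and 0.0671 and leaving out liver mutant 1 or 3 gave 0.102 and 0.0628. Leaving out muscle control 1, 2 or 3 gave 0.0822, 0.0654 and 0.0790, and muscle mutant 1, 2 or 3 gave 0.0803, 0.0837 and 0.0508. It passed without liver control 1 (0.0391) and without liver mutant 2 (0.0118).

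Mrps36 passed in the opposite direction, with a liver difference above its muscle difference by 1.46 (SE 0.27, adjusted p = 0.0217). Its muscle means were 682 ± 108 (SD, n = 3) in controls and 402 ± 111 (SD, n = 3) in mutants (-0.76, SE 0.20, adjusted p = 0.994), and its liver values are given above. The adjusted p of this Mrps36 difference was 0.0775 without liver mutant 1, 0.0730 and 0.0512 without muscle controls 1 and 3, and 0.0501 without muscle mutant 2. None of the 7 other enzymes of the cycle passed; the smallest p-values were those of Sdhd (0.59, adjusted p = 0.215), Sdhb (0.26, adjusted p = 0.396) and Suclg1, the alpha subunit of succinyl-CoA ligase (0.31, adjusted p = 0.493).

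Control liver held less RNA of 8 of the 10 enzymes than control muscle, on values normalised by quantiles over all 12 arrays. In all 7713 of 13437 genes passed (57.4%), 3696 higher in liver (27.5%) and 4017 lower (29.9%), a split of 6048 and 2090 with the values as deposited and 6504 and 2279 with quantiles within each tissue. Both of the latter scalings shift the median of all genes by 0.51 and 0.50 on the log2 scale towards liver. Members are therefore given with the scaling on which they rest.

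Cs and Idh3a differed most. Cs read 336, 362 and 356 in control liver and 4826, 5052 and 5038 in control muscle, a level 13.6-fold lower in liver (-3.76, SE 0.10, adjusted p = 8.03e-11, limma). Idh3a read 276, 452 and 577 against 4489.6, 4376 and 4247, or 10.1-fold lower (-3.34, SE 0.21, adjusted p = 1.26e-07). The other Cs probe sets gave 8.47-fold and 4.26-fold lower levels, and the mean of all its probe sets -2.98, which places Cs after Idh3a (-3.12). The groups lay far apart, and the 3 liver values of Idh3a varied more than those of muscle.

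Idh3g (-2.40, 5.26-fold lower), Ogdh (-2.16, 4.47-fold), Mdh2 (-1.94, 3.83-fold) and Sucla2 (-1.53, 2.89-fold) followed. Ogdh, for example, read 509, 580.3 and 575 in control liver and 2419, 2712 and 2482 in control muscle. These 6 genes were lower in liver, with an adjusted p under 0.05, under all 4 scalings: the smallest difference among them was that of Sucla2 with quantiles within each tissue, at -0.64. With a gene's probe sets averaged, Sucla2 did not pass (-0.20, adjusted p = 0.279), and 5 members were lower in liver, where 3624 of 12418 genes were. The average for Sucla2 takes in dim probe sets, with means of 19.5 and 23.2 in control liver and 13.3 and 8.67 in control muscle. Its brightest probe set averaged 1451 and 4221. Neighbours in this order such as Idh3g and Ogdh (intervals -2.63 to -2.16 and -2.40 to -1.93) and Ogdh and Mdh2 (-2.16 to -1.72 for the latter) were not apart beyond their intervals.

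Dlst (-0.55, SE 0.11, adjusted p = 0.00100) and Dld (-0.55, SE 0.12, adjusted p = 0.00290) were lower in liver only on the scaling over all 12 arrays. With the values as deposited they stood at 0.20 and 0.16, with quantiles within each tissue at 0.26 and 0.17, and with median centring at -0.23 and -0.27, none past the threshold. Idh3b and Fh1 did not pass on the main scaling. Idh3b read 1274, 1718 and 1641 in control liver and 1094, 1264 and 1417 in control muscle (0.29, SE 0.14, adjusted p = 0.106), and passed as higher in liver on every other scaling, at 0.65 with median centring, 1.09 as deposited and 1.15 within tissue. Without liver control 1 it passed at 0.42. Fh1 read 2259, 2262 and 2586 against 2478, 2376 and 2546 (-0.06, SE 0.10), and stood at 0.30 with median centring, 0.73 as deposited and 0.85 within tissue, of which the last 2 passed.

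The subunits of one enzyme thus ranged from 10.1-fold lower in liver for Idh3a to no passing difference for Idh3b on the same scaling, and under all 4 scalings Idh3a passed as lower in liver while Idh3b did not lie below 0. Probe sets of Idh3b disagreed in size: a second, dimmer one gave 3.13, or 8.74-fold higher in liver, where the brightest gave 0.29. The 4 probe sets of Idh3a ranged from -5.58 to 0.10, with -3.65 and the reported -3.34 between. Which transcripts each probe set detects is not given in the files.

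**Figure D4:**
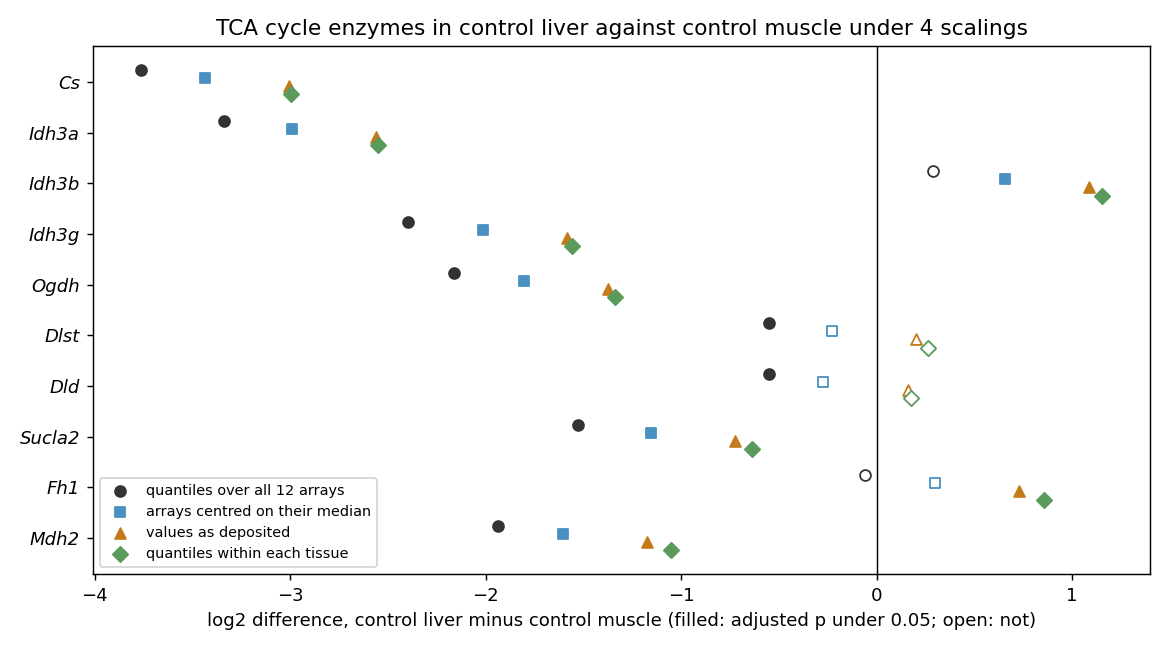
Log2 difference between control liver and control muscle for each TCA cycle enzyme under 4 scalings of the arrays; filled symbols have an adjusted p under 0.05. Cs, Idh3a, Idh3g, Ogdh, Mdh2 and Sucla2 lie below 0 under all of them, and Dlst, Dld and Fh1 lie on both sides of 0.

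The rest of the pathway was divided between the control tissues. Of the other enzymes of the cycle 2 of 7 were higher in liver, Suclg2 (1.89) and Idh2 (0.69), and 5 were lower, among them Sdha (-1.06), Sdhb (-0.61), Suclg1 (-0.65) and Sdhc (-0.70). Sdhb, Suclg1 and Sdhc turned above 0 with the values as deposited, at 0.15, 0.17 and 0.13. Pyruvate entry was lower in liver for 5 of 5 genes: Dlat (-2.34), Pdha1 (-2.20), Pdhx (-1.46), Pdhb (-1.21) and Mpc1 (-0.53), of which Mpc1 stood at 0.28 as deposited. In contrast 3 of 4 cytosolic counterparts were higher in liver: Idh1 (4.40), Acly (3.14) and Aco1 (3.04). Dhtkd1 was higher (4.73) and Mrps36 lower (-2.05). Of the 11 genes of anaplerosis and exit tested 7 were higher in liver, led by Pck1 (6.58), the cytosolic PEP carboxykinase, Glud1 (2.65) and Pcx (2.38), and 2 were lower, among them Me3 (-4.38), a mitochondrial malic enzyme.

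Among themselves the members varied together only in part. Within groups, the deviations of 2 members from their group means over the 6 arrays of a tissue correlated with a median r of 0.50 over 45 pairs in liver (-0.62 to 0.96, 35 pairs above 0) and 0.17 in muscle (-0.99 to 0.91, 25 above 0). Over all 12 arrays the mean of the 10 members, each scaled to mean 0 and SD 1, lay between -1.002 and -0.22 on liver arrays, 0.82 to 1.04 on muscle controls and 0.21 to 0.39 on muscle mutants. Liver controls, at -0.73 to -0.22, and liver mutants, at -1.002 to -0.50, overlapped, and both muscle groups stood apart from each other.

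The 5 genes outside the set whose values followed this mean most closely over the 12 arrays were Ndufa10 (Pearson r = 0.979), Uqcrfs1 (0.973), Ndufs1 (0.972), Cdkn2b (0.970) and Zfp672 (0.963), of 13467 searched. Ndufa10 and Ndufs1 encode subunits of respiratory complex I and Uqcrfs1 the Rieske protein of complex III. All of these correlations share the split between 6 liver and 6 muscle arrays, and are given as a description.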

How the data were processed

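The values are linear probe set intensity values as deposited by the authors; the sources used here do not give the algorithm or scaling behind them. Per the labels' protocols, RNA was extracted with a Qiagen RNeasy kit and biotin-labelled by standard Affymetrix procedures. Of 45101 probe sets, the 64 that serve as array controls were dropped; 34945 had 1 gene symbol, 932 several and 9160 none. A gene was represented by its probe set of highest mean log2 intensity over the 12 arrays. Intensities were taken as log2(value + 16), which understates the fold of dim genes, and normalised by quantiles within each tissue, or over all 12 arrays for the control tissues. Genes above the 40th percentile of mean intensity were tested with limma 3.58.1 (R 4.3.3, empirical Bayes with a variance trend), with Benjamini-Hochberg adjustment at 0.05. The small number of arrays limits the precision. Plots used matplotlib 3.10.9 in Python 3.11.15.

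The text names all members, up to 6 genes of each pathway list past the threshold by smallest p, the 3 other enzymes of the cycle with the smallest p where none passed, and the 5 genes most like the members' mean; any exception is named as such. Members and lists were chosen with earlier results of these data known. Alternatives varied the scaling, offset, filter, probe set rule, variance model, replicate block and arrays used. The 3′ to 5′ ratio covariate, the fit without liver mutants 1 and 3 and the quantiles within each tissue for the control tissues are described in the closing section.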

Additional observations from a re-analysis of the deposited data

Results flagged for a closer look

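The difference between the liver and muscle effects of the mutation passed the test of the difference itself for Ogdh, at -0.81 (liver minus muscle, SE 0.17, adjusted p = 0.0332, limma). It passed in 7 of 24 alternatives. Mrps36 passed in the opposite direction, at 1.46 (SE 0.27, adjusted p = 0.0217), and in 16 of 24 alternatives.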

How the results depend on the processing

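Over single omissions of an array the number of members past the threshold was 0 to 1 in liver and 0 in muscle. Of all genes 0 to 738 and 1 to 2 passed there. It was 0 to 1 for the difference between tissues (12 to 391 of all genes). Between control tissues 8 to 9 members passed, and 7076 to 7279 of the 13392 to 13448 genes tested. The number lower without overlap was 3 to 6 in liver (14.4% to 18.1% of all genes) and 8 in muscle (9.36% to 11.3%). In liver 0 members passed with the values as deposited, the mean of all probe sets, no variance trend, the replicate block, the 3′ to 5′ ratio as covariate and without liver mutants 1 and 3. The count lower without overlap in liver was 1 with median centring (9.4% of all genes) and 8 without those mutants (27.5%), and in muscle 5 on deposited values (4.08%) and 5 after median centring (3.99%). For the difference between tissues 0 members passed with no filter, the values as deposited, median centring, the mean of all probe sets, no variance trend, the ratio covariate and without liver mutants 1 and 3. Between control tissues 6 members passed, 5 of them lower in liver, with the mean of all probe sets. In that setting 7021 of 12418 genes passed, 3624 of them lower in liver. In muscle 6 members were lower without overlap with the mean of all probe sets (5.41% of all genes). Causes were not tested.

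Liver differences that turned were Idh3b (0.00036 as deposited), Cs (-0.19), Sucla2 (0.11) and Mdh1 (0.055) with the mean of probe sets, Cs (-0.0016), Idh3a (-0.047) and Fh1 (-0.17) with the covariate, and Idh3a (-0.14) and Fh1 (-0.19) without mutants 1 and 3. In muscle Ogdh (0.058) and Sucla2 (0.17) turned with the mean of probe sets. The further probe sets of these genes were dim in muscle, with group means of 35.8 and 40.1 for Ogdh and 6.66 to 16.8 for Sucla2. In liver those of Sucla2 averaged 24.6 to 44.9. For the difference between tissues, Idh3g (0.0099), Dlst (0.046), Sucla2 (0.018) and Mdh2 (0.14) turned as deposited, Dlst (0.028) and Mdh2 (0.13) with median centring, and Cs (-0.070), Dlst (0.18) and Mdh2 (0.065) with the mean of probe sets. Between control tissues Dlst (0.20), Dld (0.16), Fh1 (0.73), Sdhb (0.15), Suclg1 (0.17), Sdhc (0.13) and Mpc1 (0.28) turned as deposited. The same genes turned within tissue (0.26, 0.17, 0.85, 0.30, 0.27, 0.19 and 0.40). Fh1 (0.30) turned with median centring, and Dld (0.033) and Idh2 (-0.062) with the mean of probe sets. The dim second Dld probe set averaged 20.7 in control liver and 7.17 in control muscle. Omitting single arrays moved Idh3a from -0.27 to 0.27 and Fh1 from -0.050 to 0.17 in liver, Sucla2 from -0.11 to 0.00055 in muscle, and between tissues Idh3a from -0.13 to 0.42, Idh3g from -0.11 to 0.0040, Dlst from -0.19 to 0.079 and Mdh2 from -0.17 to 0.014.

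Over all genes, calls ran from 0 to 997 in liver (447 in the reported fit), 0 to 2 in muscle (2), 0 to 391 for the difference between tissues (168) and 7021 to 13848 between control tissues (7713), the last with every probe set on its own. With the ratio covariate 2 genes passed in liver and 1 for the difference between tissues. Without a variance trend 0 genes passed in liver, in muscle and for the difference between tissues. The replicate numbers of the labels were not taken as pairing. Same-numbered arrays had deviations correlated at -0.014, -0.129 and -0.027 in liver and 0.035, 0.103 and 0.233 in muscle. Differently numbered arrays gave -0.094 to 0.122 in liver and -0.198 to 0.111 in muscle. In muscle 750 genes had an unadjusted limma p under 0.05 with the replicate block, against 560 without it. With the replicate block the calls were 11 in liver, with 0 members, 2 in muscle, with 0 members, 102 for the difference between tissues, with 1 member, and 7553 between control tissues, with 9 members.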
